A study of Piaractus mesopotamicus with 6 samples.

Results

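Titin and the proteins that anchor it at the M-band and the Z-disc were followed by 9 gene names, which are ttn.1, ttn.2, myom1a, myom2a, mybpc2b, mybpc1, tcap, ldb3a and myoz2a. Every assembled transcript carrying such a name was taken, ignoring case, which gave 233 of the 71447 transcripts and 9 of the 16347 names in the table. The sarcomere is the contractile unit of striated muscle, and titin is the giant elastic protein that runs through it from the Z-disc, where thin filaments are anchored, to the M-band, where thick filaments are cross-linked. Myomesins tie titin and myosin together at the M-band, myosin-binding proteins C sit along the thick filament, and small Z-disc proteins hold the ends of titin and alpha-actinin. Fish carry duplicated copies of several of these genes.

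The fish was pacu (Piaractus mesopotamicus), a freshwater species of South America, and the animals were juveniles of 12 to 20 g held at 28 °C and fed once a day. In the first group, 3 libraries were made from primary muscle cells in complete growth medium (DMEM with 10% fetal bovine serum and 1% antibiotics), with muscle of 12 animals used for each isolation. In the second group, 3 libraries were made from fast-twitch epaxial muscle, from 6 animals in all. All 6 libraries carry the genotype WT, and the labels do not say which animals or cultures a library holds or whether animals were pooled, so p-values speak for the spread between these libraries, which may be technical.

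The values are normalised read counts, that is reads divided by a size factor for each library, so they include transcript length and are not compared between genes. Whole reads recovered from them and summed over transcripts came to 105795157 to 115224600 in the cell libraries and 118183731 to 124752600 in those of tissue. A read matching several transcripts may be counted more than once in these sums, which may exceed the reads sequenced. The value of 1 read was 0.391 to 0.439 in cells and 1.98 to 2.67 in tissue. Transcripts at 0 made up 2.64% to 4.86% of each cell library, against 12.6% of tissue libraries 2 and 3 and 23.6% of tissue library 1, which stood apart. Fast fibre markers summed to 590 to 5821 in cells and to between 16157791 and 24032866 in tissue. The cells carried myogenic transcripts, such as those of desma, which encodes the muscle intermediate filament desmin, at 177, 544 and 1529 in cells, against 38115, 52400 and 44925 in tissue. Other myogenic markers went the other way, such as pax7b, at 925, 1051 and 1133 in cells, against 428, 538 and 302 in tissue. By the test given below, 5 of 13 were lower in cells and 3, pax7b, cdh15 and met, were higher. The 5 include myf6, which was below 10 in every cell library, so its direction followed from the filter given below. Over all names tested, 21.7% were lower and 30.5% higher. Fibroblast markers summed to between 1102114 and 1496105 in cells, against 443921 to 546166 in tissue.

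All 9 names were far lower in the cultured cells than in the muscle. By the highest transcript of each name, the log2 change (cells minus tissue, on log2(value + 1)) ran from −14.49 for mybpc2b to −8.45 for mybpc1. Each passed limma at an adjusted p below 0.05, with 21.7% of the 15496 names tested called lower. Summed over all transcripts of a name, the 9 were lower as well, with 21.3% of summed names called lower. For all 9 the highest cell library lay below the lowest tissue library, which held for 25.8% of names. Together the 9 highest transcripts took 0.00156%, 0.00341% and 0.0126% of the total signal in cells, against 0.560%, 0.720% and 0.677% in tissue. In bulk RNA, fewer cells of a type and less RNA per cell cannot be told apart. Over all names tested the median log2 change was 0.59, and scaling to equal library totals made it 3.10. Relative to that median, the median of the 9 members was −11.22 on the deposited scale and −11.20 with equal totals.

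**Figure D1:**
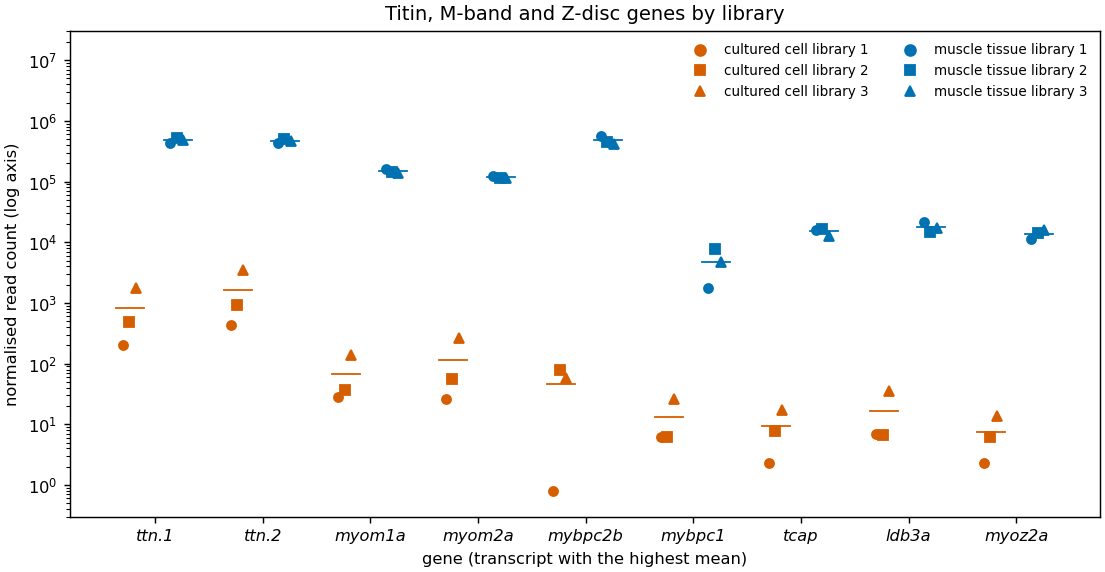
Normalised read count on a log10 axis of the highest transcript of each of the 9 names, with a point for each of the 3 cell libraries and the 3 tissue libraries and a short line at each group mean. The cell libraries lie below the tissue libraries for every name, and mybpc2b is at 0.782 in cell library 1.

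Of titin, ttn.1 had 199, 489 and 1768 normalised counts in cell libraries 1, 2 and 3, against 427232, 515286 and 485954 in tissue libraries 1, 2 and 3. Cell library 3 was the highest of the cells and cell library 1 the lowest, 8.86-fold apart, whereas the tissue libraries spanned 1.21-fold. Group means were 819 ± 834 in cells and 476157 ± 44837 in tissue (SD over 3 libraries), 582-fold lower in cells. The log2 change was −9.73 (SE 0.72, adjusted p = 8.12e-05), and it was −8.99 without cell library 1 and −10.56 without cell library 3.

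The other titin name, ttn.2, had 432, 931 and 3503 normalised counts in cells, against 439580, 511672 and 472711 in tissue. It showed the same order of cell libraries and a tissue range of 1.16-fold. The difference was 293-fold between the group means, with a log2 change of −8.72 (SE 0.70, adjusted p = 0.000109), which was −8.03 without cell library 1 and −9.54 without cell library 3. Summed over every transcript of the name, the changes were −10.00 for ttn.1 and −8.48 for ttn.2. The highest transcripts of both names belong to the same assembled gene, which holds 7 transcripts named ttn.1 and 1 named ttn.2, so reads may have been split or counted more than once between them.

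At the M-band, myom1a, a myomesin that cross-links myosin filaments, had 28.2, 36.4 and 139.9 normalised counts in cells, against 160874, 145248 and 137032 in tissue. Even its highest cell library was 980-fold below its lowest tissue library. Its log2 change was −11.43 (SE 0.55, adjusted p = 1.98e-05), and it was −12.12 without cell library 3. Its 5 transcripts, all of 1 assembled gene, changed by −11.43 to −10.84.

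The second myomesin, myom2a, had 25.8, 55.3 and 263 normalised counts in cells, against 123449, 112907 and 114012 in tissue. Its tissue libraries were the closest of the 9 names, spanning 1.09-fold, while its cell libraries spanned 10.2-fold, again with library 3 on top. The log2 change was −10.63 (SE 0.75, adjusted p = 6.93e-05), and it was −9.90 without cell library 1 and −11.55 without cell library 3. Of its 14 transcripts, 13 could be tested and all 13 were lower in cells, by −10.73 to −5.01.

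Along the thick filament, mybpc2b, named for the fast type of myosin-binding protein C, had 0.782, 79.9 and 58.8 normalised counts in cells, against 570096, 442215 and 419869 in tissue. Cell library 1 held 2 reads, under the floor of 3, against 182 and 135 reads in cell libraries 2 and 3, so the cells differed among themselves by 102-fold. The group means, 46.5 ± 41.0 in cells and 477393 ± 81057 in tissue (SD over 3 libraries), were 10267-fold apart. The log2 change was −14.49 (SE 1.35, adjusted p = 0.000183). It was −12.73 without cell library 1, −15.48 without cell library 2 and −15.27 without cell library 3, and −13.87 with a pseudocount of 5.

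The slow-type counterpart, mybpc1, had 6.26, 6.15 and 26.6 normalised counts in cells, against 1731, 7599 and 4657 in tissue. The groups did not overlap, and the nearest cell and tissue libraries were 65.1-fold apart. The log2 change was −8.45 (SE 0.72, adjusted p = 0.00013), −9.10 without cell library 3 and −9.04 without tissue library 1. In cell library 1 the value rests on 16 reads, and 6 of the 12 mybpc1 transcripts show the same 16 reads, so those transcripts are not independent there.

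Among the tissue libraries mybpc1 varied the most of the 9, by 4.39-fold, against 1.09-fold to 1.44-fold for the other members. The median range over 8607 names with a tissue mean of 100 or more was 1.70-fold, and 6.38% of them varied at least as much as mybpc1. Genes of slow, oxidative fibres showed the same order, with library 2 highest and library 1 lowest. The slow troponin C gene tnnc1b had 32.1, 45.6 and 89.3 normalised counts in cells, against 3806, 14693 and 8731 in tissue. Myoglobin, mb, an oxygen-binding protein, had 11.7, 25.02 and 6.54 in cells, against 13522, 52985 and 31390 in tissue. Of the 10 slow fibre markers found, 8 followed this order in tissue, compared with 20.5% of all names tested. The order was not particular to slow fibre genes. Of the 9 members 3 had it, mybpc1, ttn.1 and ttn.2, the titins over ranges of only 1.21-fold and 1.16-fold. Of the erythrocyte markers 6 of 8 had it too. Among them hbaa2 had 0, 0.878 and 0.872 normalised counts in cells, against 1091, 10349 and 7858 in tissue. The list sums were 21.1, 21.5 and 159.9 in cells, against 15541, 39695 and 34641 in tissue. Of the tissue sums, ank1a, which did not have the order, gave 10700, 12969 and 14878. Tissue library 1, the lowest in each case, is also the library with the most transcripts at 0. The cardiac-type paralog mybpc3 and the alpha-actinin actn2, both chosen after their values were seen, followed it too. For mybpc3 the values were 0, 0 and 1.74 in cells, against 535, 3491 and 2198 in tissue, and for actn2 they were 1.56, 2.63 and 0 in cells, against 1455, 5999 and 2759 in tissue. The part of the fibre mix, of blood or of tissue library 1 in the level of mybpc1 was not tested.

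At the Z-disc, tcap (telethonin), which caps the ends of titin, had 2.35, 7.90 and 17.4 normalised counts in cells, or 6, 18 and 40 reads, against 15774, 16524 and 12855 in tissue. The lowest tissue library stood 737-fold above the highest cell library. On the log2 scale the change was −10.84 (SE 0.58, adjusted p = 2.58e-05), −10.19 without cell library 1 and −11.42 without cell library 3. A pseudocount of 5 gave −10.19, since the cell values are near the pseudocount. The assembled gene of tcap also holds transcripts named plxna2.

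For myoz2a, a calsarcin that binds alpha-actinin and the phosphatase calcineurin in mammals, the values were 2.35, 6.15 and 13.9 in cells, or 6, 14 and 32 reads, against 11216, 14018 and 16173 in tissue. The groups were separated by 804-fold at their nearest libraries, with a log2 change of −10.91 (SE 0.52, adjusted p = 1.88e-05), and −10.20 with a pseudocount of 5. Its 4 transcripts lay within −11.14 and −10.91.

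The last Z-disc member, ldb3a, named for a PDZ and LIM domain protein that binds alpha-actinin, had 7.04, 6.58 and 35.3 normalised counts in cells, against 21258, 15010 and 17243 in tissue. Its log2 change was −10.40 (SE 0.59, adjusted p = 3.28e-05), −11.14 without cell library 3. The sum over its 3 transcripts changed less, by −6.96 (SE 0.52, adjusted p = 9.72e-05).

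The 3 ldb3a transcripts, each of a different assembled gene, did not move alike. The second had 89.2, 257 and 410 normalised counts in cells, against 5965, 8784 and 10485 in tissue, a change of −5.27 (SE 0.54, adjusted p = 0.000263). In cells it stood at 1267%, 3907% and 1162% of the transcript that was highest over the 6 libraries, against 28.1%, 58.5% and 60.8% in tissue. The third had 0, 0.439 and 0 in cells, against 2276, 1644 and 1693 in tissue. This pattern was noticed after the values were seen, and no test was made of it. Whether the 3 are isoforms, separate loci or a shared label is not given in the table, and the assembled genes of the first and the third also hold transcripts named ldb3 and ldb3b.

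**Figure D2:**
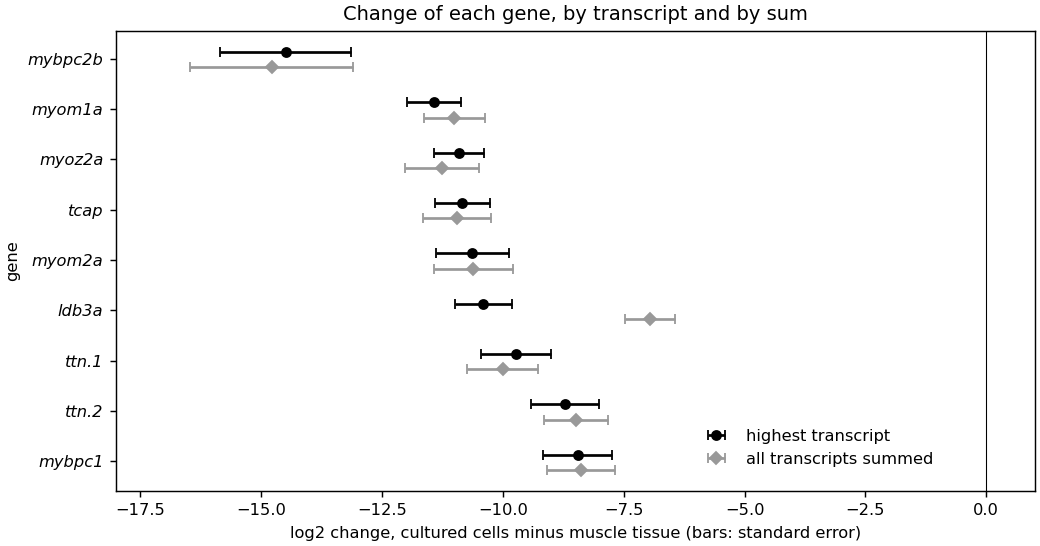
Log2 change (cells minus tissue) of each of the 9 names, by the highest transcript and by the sum of all its transcripts, with the standard error as bars. All changes are negative, and the 2 measures part most for ldb3a, at −10.40 and −6.96.

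Counted over every transcript, 166 of the 233 passed the filter on low values (10 or more in at least 3 libraries), and 165 of these were lower in cells, none was higher and 1 did not pass. Over all 65662 transcripts tested, 19.7% were lower and 27.4% higher. The cell libraries all lay below the tissue libraries for 164 of the 166, against 24.4% of all transcripts tested. A transcript below 10 in every cell library passes the filter only if all 3 tissue libraries are at 10 or more. For such transcripts both this order and the direction counted among the 165 followed from the filter and are no result. Of the 166, 114 were titin transcripts at low levels, outside the assembled gene of the highest ones. Transcripts of a name may share reads, so the 165 are a description and not 165 observations. The exception, a ttn.1 transcript, had 0.782, 0 and 10.5 normalised counts in cells, against 93.6, 1.98 and 119 in tissue (change −3.57, adjusted p = 0.111). Its tissue library 2 lay below cell library 3, so the groups overlapped. Of the 67 transcripts under the filter, 66 were titin and 1 was myom2a, and 55 were at 0 in every cell library.

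**Figure D3:**
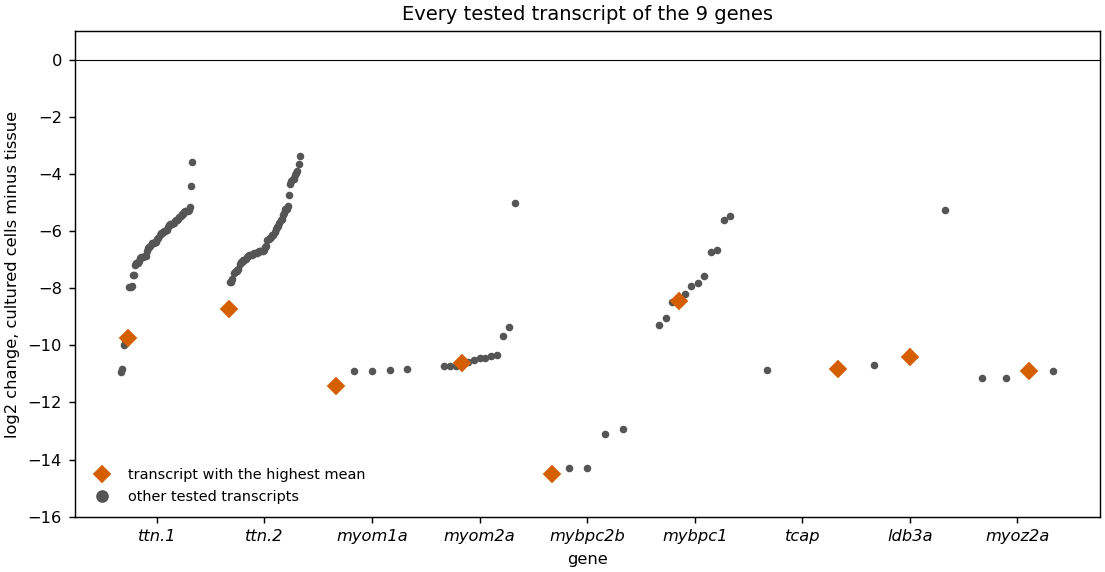
Log2 change (cells minus tissue) of each of the 166 tested transcripts, ordered within each name along the horizontal axis, with the highest transcript of a name as a diamond. Points of ttn.1 and ttn.2 run from −10.94 to −3.37, whereas the 5 transcripts of mybpc2b lie between −14.49 and −12.93.

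Cell library 3 was the highest of the cells for 8 of the 9 names and cell library 1 the lowest for 7. Over all names tested, cell library 3 was highest for 30.3% and cell library 1 lowest for 36.7%. The full order, library 3 over 2 over 1, held for 6 of the 9 names, against 18.2% of all names. Of the fast fibre markers 16 of 19 had it, and of the myogenic markers 9 of 14. Myogenin, myog, the factor of terminal muscle differentiation, had 44.2, 133 and 326 normalised counts in cells, against 321, 476 and 593 in tissue. The determination factor myod1 had 39.9, 86.9 and 238 in cells, against 1297, 1069 and 1207 in tissue. Titin, the myomesins, tcap and myoz2a thus ordered the cell libraries as most fast fibre markers and myog, myod1 and desma did, while mybpc1, mybpc2b and ldb3a did not. Cell library 3 was still the highest for mybpc1 and ldb3a. Cell libraries 1 and 2 held 16 and 14 reads of mybpc1 and 18 and 15 of ldb3a, too close to order them. The part of differentiation in the spread between cell libraries was not tested.

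For 3 pairs of related members, the change in their log2 ratio between groups was computed. The name ttn.1 relative to ttn.2 had a log2 ratio of −1.01 ± 0.09 in cells and 0.00 ± 0.04 in tissue (SD over 3 libraries), a difference of −1.01, and the groups did not overlap. Over summed transcripts the difference was −1.52. As the highest transcripts of both names belong to the same assembled gene, this may not be a ratio of gene copies. For myom1a relative to myom2a the ratio was −0.46 ± 0.53 in cells and 0.34 ± 0.06 in tissue (SD over 3 libraries), a difference of −0.79. Without cell library 3 the difference was smaller, at −0.57. Over summed transcripts it was −0.39, with p = 0.4 in the exact permutation test, so the ratio of the myomesins depends on the transcript taken. For mybpc1 relative to mybpc2b the ratio was −0.86 ± 2.77 in cells and −6.91 ± 1.3 in tissue (SD over 3 libraries), a difference of 6.04. That value rests in part on the 2 reads of mybpc2b in cell library 1, and it was 4.60 without that library and 7.36 without cell library 2. By the highest transcripts each pair gave p = 0.1 in an exact two-sided permutation test over the libraries, which is the smallest p that 3 against 3 allows, so none can pass 0.05. Adjusted over the 3 pairs, p stayed at 0.1. Because transcript lengths are not used here, a ratio in itself does not say which copy is more abundant.

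Most transcripts named titin lay outside the main assembled gene, 180 over 86 assembled genes against 8 within it, and at low levels. They are described apart because tissue library 1 was the highest library for 165 of them, or 91.7%, against 30.3% of all transcripts without a titin name and 31.2% of the 38977 with means in the same range. Their values summed to 183, 345 and 913 in cells, against 80765, 32427 and 39801 in tissue. The ttn.2 portion summed to 149, 209 and 635 in cells, against 50631, 9069 and 17352 in tissue, with tissue library 1 highest for 90 of 95. The ttn.1 portion summed to 33.6, 136.5 and 278 in cells, against 30133, 23357 and 22449 in tissue, with tissue library 1 highest for 75 of 85. It includes a second assembled gene, given below, that was lowest in tissue library 1, at 11625, 20431 and 17629 in tissue. Without that gene the remaining 174 titin transcripts, of both names, summed to 69139, 11995 and 22172 in tissue. The 8 transcripts of the main assembled gene were not highest in tissue library 1, with sums of 1390, 3490 and 12132 in cells, against 3074886, 3695948 and 3465001 in tissue.

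Of these 180, 89 were at 0 in every cell library, and 40 were above 0 in tissue library 1 alone. Only 47 transcripts in the whole table were above 0 in tissue library 1 alone, so titin names made up 40 of them. Counted another way, 158 transcripts exceeded 50 in tissue library 1 while at 0 in the other tissue libraries, of which 42 carried a titin name. The same count was 109 for tissue library 2 and 99 for tissue library 3, with 0 titin names in each. Of the 180, 6 belong to a second assembled gene named ttn.1, which was not highest in tissue library 1. Its sums were 13.3, 128 and 180.4 in cells, against 11625, 20431 and 17629 in tissue. The part of RNA quality or of assembly in these fragments was not tested, while at the main assembled gene, where ttn.1 and ttn.2 changed by −9.73 and −8.72, tissue library 1 was the lowest of the tissue libraries.

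**Figure D4:**
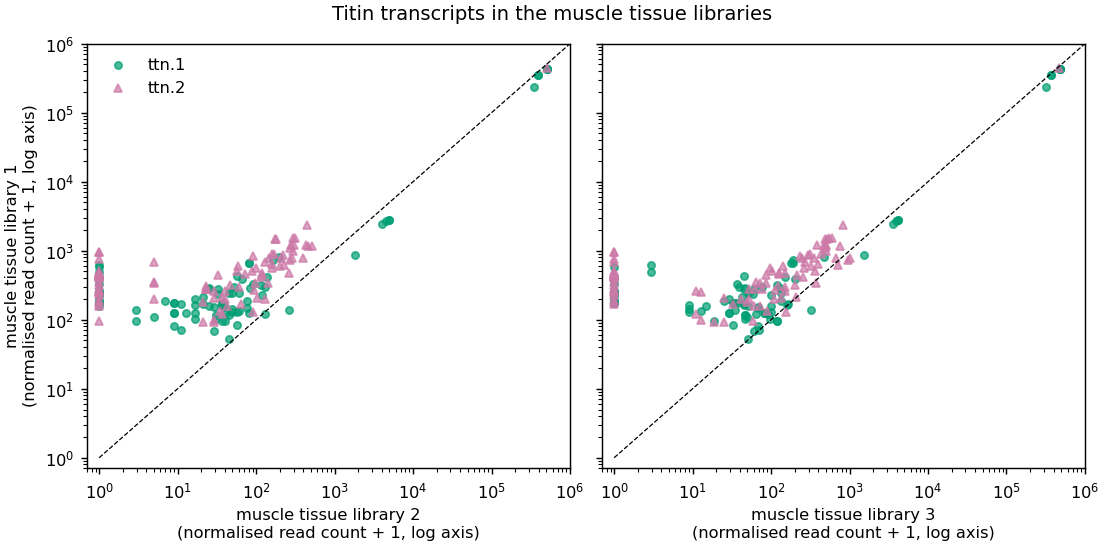
Each titin transcript by its normalised read count + 1 in tissue library 1 (vertical axis) and in tissue library 2 or 3 (horizontal axis, a panel each), on log axes, with the line of equal values dashed. The 8 transcripts of the main assembled gene lie at the top right, and 165 of the other 180 are highest in tissue library 1.

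Other genes of the same structures were taken from a list of 87 names, of which 67 were found and tested. Of the 67, 47 were lower in cells, 11 were higher and 9 did not pass, against 21.7% lower and 30.5% higher over all names tested. The median log2 change was −7.22, against 0.59 for all names. Thick filament binding genes were lower in 5 of 5 cases, Z-disc genes in 31 of 39 with 4 higher, and M-band and titin-partner genes in 11 of 23 with 7 higher. A name below 10 in every cell library passes the filter only if all 3 tissue libraries are at 10 or more. For such names, among them mybpc2a, mybpc3, pdlim5b and actn2b, the direction followed from the filter and is no result. The same holds for the rise of ankrd2, which was below 10 in every tissue library. After scaling to equal totals the counts were 41 lower and 20 higher, where 7.66% of all names were lower and 79.7% higher.

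The 4 highest by mean level were all lower in cells. The alpha-actinin actn3a, which cross-links actin at the Z-disc of fast fibres, had 16.4, 109.7 and 281 normalised counts in cells, against 454749, 376957 and 368492 in tissue (change −12.25, SE 0.91, adjusted p = 8.32e-05). The name actn3b, given to another transcript of the same assembled gene, changed by −12.51 (SE 1.07, adjusted p = 0.000136). The myosin-binding protein H gene mybphb changed by −11.36 (SE 0.81, adjusted p = 7.15e-05) and the myomesin myom2 by −12.68 (SE 0.85, adjusted p = 5.89e-05). Reads may be shared between actn3a and actn3b, so they may not be separate genes here. Summed over their transcripts the alpha-actinins changed less, by −9.40 for actn3a and −8.62 for actn3b.

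The 4 largest falls were those of igfn1.1, myoz1a, pdlim5b and smyd1a. The gene igfn1.1, whose protein has immunoglobulin-like and fibronectin domains, had 0, 22.8 and 16.6 normalised counts in cells, against 109756, 81940 and 79431 in tissue (change −13.55, SE 1.12, adjusted p = 0.000121). The calsarcin myoz1a changed by −13.36 (SE 1.13, adjusted p = 0.000129), and smyd1a, named for a methyltransferase, by −13.11 (SE 1.17, adjusted p = 0.000154). Like mybpc2b, igfn1.1, myoz1a and smyd1a were lowest in cell library 1, where igfn1.1 and smyd1a were at 0 and myoz1a at 0.782. The PDZ and LIM gene pdlim5b had 0, 0.878 and 1.31 in cells, at or under the floor of 3 reads, against 15354, 14477 and 14866 in tissue (change −13.16, SE 0.37, adjusted p = 6.6e-06). As these cell values were all below 10, the direction of the change followed from the filter and is no result. The transcripts of pdlim5b summed did not pass, with a change of −0.18 (adjusted p = 0.49), so no fall was found for the name. The alpha-actinin actn2b was at 0 in every cell library and at 297, 799 and 654 in tissue, at least 461-fold lower against a floor of 3 reads per library.

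The 4 largest rises were those of fhl2b, ankrd1a, ankrd2 and fhl2a, all from the M-band and titin-partner part of the list. A tie to titin or the M-band was thus a ground for listing them and not a finding. The LIM domain gene fhl2b had 335.5, 848 and 601 normalised counts in cells, against 5.35, 0 and 15.9 in tissue (change 6.87, SE 1.06, adjusted p = 0.00176). The name fhl2a, given to another transcript of the same assembled gene, had 1550, 3687 and 2681 in cells, against 329, 228 and 145 in tissue (change 3.48, SE 0.40, adjusted p = 0.000447). The fhl2a and fhl2b values may likewise share reads. The ankyrin repeat gene ankrd1a had 1150, 3069 and 2447 in cells, against 10.7, 67.4 and 77.6 in tissue (change 5.69, SE 0.77, adjusted p = 0.000923). Its relative ankrd2 had 54.8, 54.9 and 67.1 in cells, against 0, 0 and 3.98 in tissue, where it rests on 2 reads (change 5.13, SE 0.80, adjusted p = 0.00186). All tissue values of ankrd2 were below 10, so it passed the filter only through the cell libraries. The direction of its change followed from the filter and is no result. The ratio of the ankrd2 means was 44.4 (95% counting interval 12.3 to 366.8, counting error only). These genes are also known outside muscle fibres. Of the fibroblast markers 12 of 16 were higher in cells and 1, postnb, was lower (change −3.34). The 12 include twist1b, which was below 10 in every tissue library, so its direction followed from the filter too. Of the smooth muscle markers 4 of 6 were higher and 2 were lower, acta2 and myh11a (changes −5.71 and −4.13). The name acta2 had 25167, 32522 and 35439 in cells, against 1849171, 1410327 and 1587186 in the fast muscle, so it may not mark smooth muscle alone. Over all names tested, 30.5% were higher and 21.7% lower. The part of other cells in these rises was not tested.

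**Figure D5:**
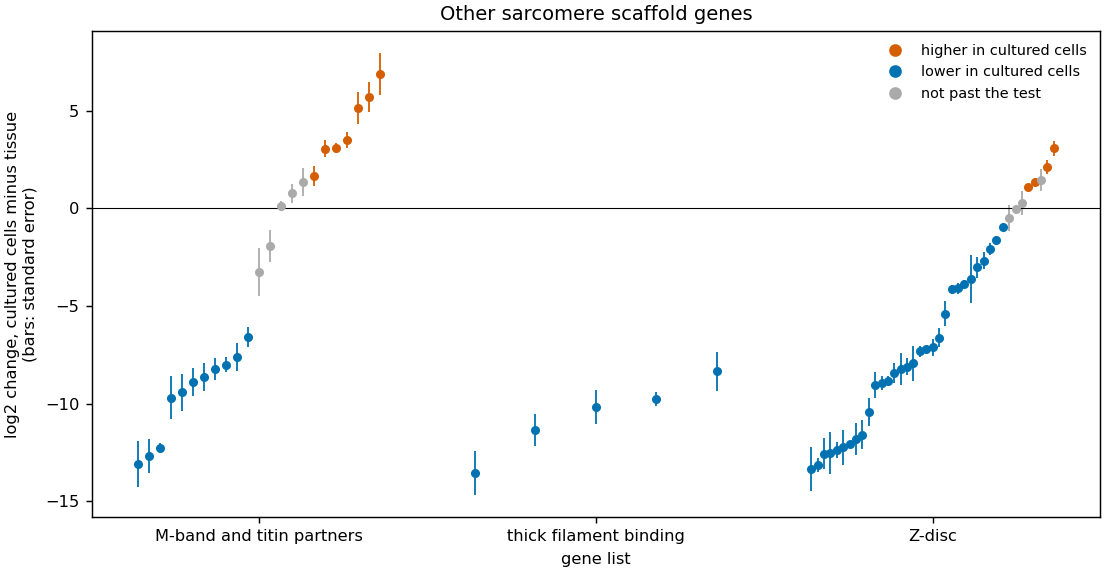
Log2 change (cells minus tissue) of the 67 other scaffold names, ordered within the M-band and titin-partner, thick filament and Z-disc groups, with standard errors as bars and names higher, lower or not past the test in different colours. Falls reach −13.55 at igfn1.1 and rises reach 6.87 at fhl2b.

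Paralogs of the members, read beside them, were lower too. The change was −12.26 (SE 0.24, adjusted p = 3.04e-06) for myom1b, which had 23.9, 25.5 and 42.7 normalised counts in cells, against 166743, 145411 and 139564 in tissue. That transcript belongs to the same assembled gene as the 5 of myom1a, so the myom1b value may hold the same reads and is no separate observation. The change was −11.61 (SE 0.74, adjusted p = 4.91e-05) for ldb3b and −8.35 (SE 1.00, adjusted p = 0.000527) for mybpc2a. The values of mybpc2a were 0, 7.90 and 6.97 normalised counts in cells, against 2910, 587 and 1424 in tissue, so that its tissue order, highest in library 1 and lowest in library 2, was the reverse of that of mybpc1. As its cell values were all below 10, the direction of its change followed from the filter.

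The names whose pattern over the 6 libraries was most like the mean pattern of the 9 members were cacna1sb, sh3bgr, ank1a, klhl43 and gls2a. Likeness was the root mean square distance of log2(value + 1), centred on each name's mean, and it was 0.139 for cacna1sb, a subunit of the muscle calcium channel. That gene had 10.9, 22.4 and 82.8 normalised counts in cells, against 47839, 47651 and 41770 in tissue. The distances of sh3bgr, ank1a, klhl43 and gls2a were 0.271, 0.443, 0.455 and 0.478. Among the members themselves tcap lay closest to the mean pattern, at 0.214, and mybpc2b farthest, at 2.29. As the members were part of the mean and the pattern is mainly the difference between the groups, these distances are a description.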

How the data were processed

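Per the labels' protocols, TRIzol was used for RNA and a stranded TruSeq kit for the poly(A) libraries. GRCz11, DESeq2, Bowtie2, Trimmomatic and FastQC 0.11.8 are named in the submitters' processing notes, without their roles. How reads matching several transcripts were counted is not given in the sources used here. In this study the table deposited by the authors holds normalised read counts of 71447 Trinity transcripts with symbols. Within 0.01, 100% of values were whole multiples of the value of 1 read, so reads could be recovered, and the floor of 3 reads was 1.17 to 1.32 in cells and 5.95 to 8.02 in tissue.

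Values on the log2(value + 1) scale were fitted by limma (3.58.1, R 4.3.3) with a trended prior variance, over transcripts of 10 or more in at least 3 libraries (65662), with Benjamini-Hochberg adjustment over all of them and a threshold of 0.05. For low genes this scale understates a fold change. The transcript with the highest mean stood for a name. Replicates of a group were not duplicates (chi-square per degree of freedom between them 52.6 to 215.4), so each library counted as 1 sample. The fit was tested on simulated counts, with 50 transcripts set to differ at each size. At 2-fold it found 10% of them, at 4-fold 44%, at 8-fold 66% and at 1000-fold 92%. The 50 per size were set among 65662 transcripts, whereas in the data 19.7% were called lower and 27.4% higher. With so unlike a share of changes, these rates may not carry over to the data. The median error was 1.82 log2 units at 1000-fold, against 0.28, 0.23 and 0.33 at the smaller sizes. It called 109 transcripts as changed, and 3 of these were false. A name that did not pass may therefore still differ. Members and lists were chosen with earlier results of these data known, and list genes are named by level and size of change: the 4 highest means, the 4 largest falls and the 4 largest rises. The named slow fibre and myogenic genes are tnnc1b, mb, myog, myod1 and desma, with pax7b, cdh15 and met added after their values were seen. smyhc1 was not matched. The fibroblast list and the other marker lists are given as sums or counts, with some members named after their values were seen. Alternatives were other pseudocounts, filters, scalings, voom weights on the recovered reads, a robust prior, a replicate block, summed names and leaving out each library. Python 3.11.15 with scipy 1.17.1 was used for permutation tests. No sequences or positions are given, as no reference was used here.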

Additional observations from a re-analysis of the deposited data

How the results depend on the processing

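All 9 member names were lower in cells and past the threshold under each of the 16 alternatives, with changes between −15.48 and −6.003 and a highest adjusted p of 0.00178. The count of 9 also held when each library was left out. Member transcripts lower in cells numbered 161 to 166 with a library left out, 112 with a filter of 50 and 182 with no filter, against 165. Scaled to equal totals they numbered 144. Wherever a filter was used, the direction was set for transcripts under the filter value in every cell library. These transcript counts are thus a description. Over the other scaffold genes, 46 to 48 were lower and 10 to 12 higher with a library left out, against 47 and 11, whereas equal totals gave 20 higher, by its own construction, since it raised the median of all names. With a library left out the ratio changes ran from −1.05 to −0.96 for ttn.1 over ttn.2, −1.08 to −0.57 for myom1a over myom2a, and 4.60 to 7.36 for mybpc1 over mybpc2b. The labels do not pair libraries by number, and same-numbered libraries correlated at −0.063, −0.045 and −0.017. With the replicate number as a block, 9 member names and 166 member transcripts were lower, and 46 scaffold genes were lower and 12 higher. The edgeR test planned on recovered reads was not run, and limma's voom weights gave 9 names and 165 transcripts. Depth limits the cell values of tcap, myoz2a and mybpc2b, which rest on as few as 6, 6 and 2 reads.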

Other observations

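Markers of other cells, and of muscle fibres and myogenic cells, gave values beside those of the scaffold genes. Erythrocyte markers summed to 21.1, 21.5 and 159.9 in cells, against 15541, 39695 and 34641 in tissue, and 7 of 7 tested were lower in cells. Of the tissue sums ank1a gave 10700, 12969 and 14878, and sptb gave 128 of the sum in cell library 3. The gene ank1a was among the names most like the members in pattern, so these sums are not a measure of blood alone. Leukocyte markers summed to 529, 442 and 280 in cells, against 10184, 7242 and 7808 in tissue, with 8 of 10 lower and with lcp1 and laptm5 at 0 in every cell library. Of endothelial markers 10 of 15 were lower and 2 higher, and flt1 was at 0 in every cell library. Of Schwann and neuronal markers 5 of 6 were lower, with mbpa and plp1b at 0 in every cell library. Of cardiac markers 2 of 4 were lower, myh6 and myh7, and myh7 was at 0 in every cell library. The name myh6 had 4.30, 218 and 280 in cells, against 1404733, 908089 and 955293 in the fast muscle. These counts are thus not a measure of cardiac cells alone. Among fast fibre markers 17 of 19 were lower, and among slow fibre markers 7 of 9 were lower and 1 higher. Of the myogenic markers 5 of 13 were lower and 3 higher. Against these lists, 21.7% of names tested were lower and 30.5% higher. Names below 10 in every cell library were tested only because all 3 tissue libraries were at 10 or more. Among them were hbaa2, hbba2, alas2, slc4a1a, epb41b, coro1a, lcp1, cd74a, laptm5, flt1, mpz, mbpa, plp1b and myh7. Also among them were ptprc and spi1b of the leukocyte list, and pecam1, tie1, fli1b, cldn5b and esama of the endothelial list. The slow fibre marker smyhc2 and the myogenic marker myf6 were further cases. For these the direction followed from the filter and is no result.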
